A study of Homo sapiens with 8 samples.

Results

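The BCL2 family decides whether a cell under stress keeps or loses its mitochondrial outer membrane. The 10 family genes examined here are 2 pro-survival genes (BCL2L1 and MCL1), 2 effectors (BAX and BAK1) and 6 BH3-only genes (BBC3, PMAIP1, BID, BCL2L11, BIK and BMF). They were found by symbol among the 58870 gene rows of the count table, each in 1 row, and all 10 were among the 13860 genes with enough counts to be tested. RNA was sequenced from 8 libraries of Panc 10.05, an established line of human pancreatic ductal adenocarcinoma. By the labels, 4 libraries were Panc 10.05 control and 4 were Panc 10.05 carrying an ELAPOR1 transgene (ELAPOR1 overexpression). ELAPOR1 is a transmembrane protein of endosomes and lysosomes named for its link to apoptosis and autophagy, and no other agent, allele or time point was given for either group. The vector and promoter, and whether the overexpressing cells were a pool or 1 clone, were not given in the sources used here.

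In the family's working scheme, the effectors BAX and BAK1 form pores in the mitochondrial outer membrane and release cytochrome c, after which caspases are activated. Pro-survival proteins such as BCL-XL (from BCL2L1) and MCL1 bind the effectors and hold them back. BH3-only proteins respond to particular stresses and act through a short helix, the BH3 domain, which binds pro-survival proteins or, for some members, the effectors themselves. Much of this control acts on proteins, for example the rapid turnover of MCL1 and the cleavage of BID, and is not seen in RNA. Pancreatic cancer cells are known to lean on BCL-XL and MCL1 for survival.

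Total counts ranged from 16558600 to 18128757 in control and from 13765509 to 17258166 in ELAPOR1 libraries. The overexpressed gene (listed as KIAA1324) had 1 to 4 counts in control and 5910 to 7368 counts in ELAPOR1 libraries, so all 8 libraries matched their labels. The 6 epithelial markers KRT7, KRT8, KRT18, KRT19, EPCAM and CDH1 were all detected. They summed to 11929 to 13196 CPM in control and 11159 to 11510.0 CPM in ELAPOR1 libraries, mostly from KRT8 and KRT18. At an edgeR adjusted p-value under 0.05, KRT8 (log2 fold change -0.16) and KRT18 (-0.36) were lower in ELAPOR1 libraries. KRT7 (0.31), KRT19 (0.25) and CDH1 (0.11) were higher, and EPCAM (-0.025) did not pass. Of 8 markers of leukocytes, endothelium, fibroblasts, acinar and endocrine cells, 4 (CD3E, PRSS1, CPA1 and INS) were at 0 counts in every library and COL1A1 alone exceeded 10 counts. The labels do not say whether the 4 libraries of a group were separate cultures, so p-values measure the spread between these libraries, which may be technical.

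The upstream sequences of the members that changed most, BAX, BBC3 and PMAIP1 (lower) and BID (higher), are shown first. They are RefSeq sequences of GRCh38.p14, from 250 bases before to 50 bases after the annotated start, written 5′ to 3′ in the direction of the gene. Capitals mark matches on either strand to CACGTG (the E-box, bound by basic helix-loop-helix factors), GGGCGG (the GC box, which reads CCGCCC on the other strand) or TGANTCA (the AP-1 site). The table held 14 start regions for 8 of the 10 genes, and MCL1 and BIK were not matched. BID had 5 annotated starts, of which 2 held both an E-box and a GC box; the one of these with more GC boxes is shown.
BAX (chr19:48954625-48954924, plus strand): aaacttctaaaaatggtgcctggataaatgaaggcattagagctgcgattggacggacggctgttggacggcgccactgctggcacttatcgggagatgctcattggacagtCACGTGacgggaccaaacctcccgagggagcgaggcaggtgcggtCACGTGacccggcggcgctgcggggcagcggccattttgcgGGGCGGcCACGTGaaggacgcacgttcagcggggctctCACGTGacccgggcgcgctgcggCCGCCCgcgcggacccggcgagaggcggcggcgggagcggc
BBC3 (chr19:47232618-47232917, minus strand): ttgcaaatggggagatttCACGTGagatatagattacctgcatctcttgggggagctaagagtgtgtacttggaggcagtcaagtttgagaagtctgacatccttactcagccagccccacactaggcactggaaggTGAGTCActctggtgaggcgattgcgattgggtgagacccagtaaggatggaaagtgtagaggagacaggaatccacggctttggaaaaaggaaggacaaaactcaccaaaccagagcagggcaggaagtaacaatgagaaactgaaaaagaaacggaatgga
PMAIP1 (chr18:59899746-59900045, plus strand): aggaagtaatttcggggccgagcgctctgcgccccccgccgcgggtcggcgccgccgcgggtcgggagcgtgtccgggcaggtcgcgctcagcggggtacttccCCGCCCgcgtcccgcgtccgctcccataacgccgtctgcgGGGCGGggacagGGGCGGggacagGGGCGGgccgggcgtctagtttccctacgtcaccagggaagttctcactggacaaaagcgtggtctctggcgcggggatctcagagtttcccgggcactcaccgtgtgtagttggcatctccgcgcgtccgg
BID (chr22:17773993-17774292, minus strand): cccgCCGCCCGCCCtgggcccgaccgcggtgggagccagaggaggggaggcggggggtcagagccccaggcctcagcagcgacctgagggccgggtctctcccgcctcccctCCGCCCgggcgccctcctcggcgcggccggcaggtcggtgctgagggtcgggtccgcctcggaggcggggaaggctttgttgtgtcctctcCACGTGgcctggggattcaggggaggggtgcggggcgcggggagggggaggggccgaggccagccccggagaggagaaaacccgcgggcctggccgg

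The BAX sequence held 4 E-boxes and 2 GC boxes, none of which overlapped. Of the 35116 start regions listed, 5 held at least 4 E-boxes, those of AMDHD2, BAX, LAMP1, RAD9A and SLC25A31. The threshold of 4 was taken from the BAX sequence, so BAX is among them by construction. At least 1 E-box was present in 7.26% of all start regions and in 4 of the 14 start regions of the 8 genes. These belong to BAX, BBC3 and BID. The PMAIP1 sequence held 4 GC boxes and no E-box. At least 1 GC box was present in 44.95% of all start regions and in 10 of the 14 of these genes. The 10 belong to 7 of the 8 genes, BBC3 being the exception. For BBC3 only 1 start region was listed, and which starts were used in these cells was not tested. Some of the 14 start regions overlap in position. The BBC3 sequence held 1 E-box and the only AP-1 match, which 7.71% of all start regions have. In the BID sequence, 2 of the 3 GC boxes overlapped each other. Neither TGATGNAA, a core of sites for ATF4 with CHOP (3.62% of all start regions), nor TTTGGCGC, a form of the E2F site (0.652%), was found in any of the 14 start regions. These matches describe letters in a window and show no binding.

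Of the 10 genes, 6 differed between ELAPOR1 and control libraries at an edgeR adjusted p-value under 0.05. BAX, BAK1, BBC3 and PMAIP1 were lower, MCL1 and BID were higher, and BCL2L1, BCL2L11, BIK and BMF were not called. Changes were widespread in these cells, and the count is to be read against a background of 44.7% of all tested genes called, 22.1% lower and 22.6% higher. As in any bulk sample, fewer cells of a kind and less RNA per cell cannot be told apart. The CPM of the groups (counts scaled to a library of 1000000, with TMM factors) did not overlap for 6 of the 10 genes, against 39.2% of all tested genes (20.0% higher, 19.3% lower); BCL2L1 was among these 6 and BAK1 was not. The median log2 fold change of the 10 genes was -0.054, against 8.7e-04 over all tested genes. The changes were modest, from -0.76 for BBC3 to 0.30 for BID, and none of the 10 passed a test against a 1.5-fold change (edgeR's glmTreat), which 1.55% of tested genes passed (0.657% on the lower side). The median absolute log2 fold change of all called genes was 0.28, which BBC3, BAX, BID and PMAIP1 exceeded and MCL1 and BAK1 did not.

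**Figure D1:**
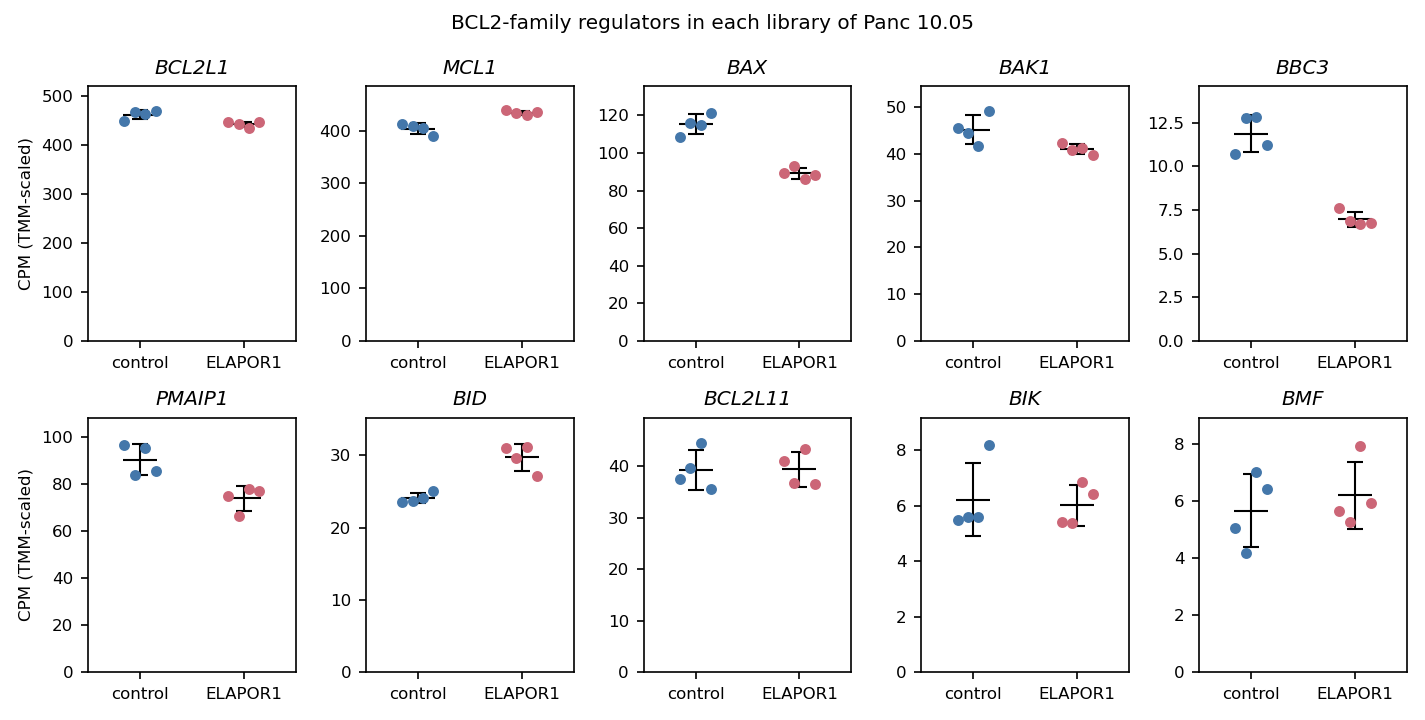
CPM (TMM-scaled, from 0) of the 10 genes, 1 panel each, in 4 control (blue) and 4 ELAPOR1 (red) libraries, with the mean and SD in black. BBC3, BAX and PMAIP1 sit lower and BID and MCL1 higher in all 4 ELAPOR1 libraries, while BCL2L11, BIK and BMF overlap. BCL2L1 also sits lower in all 4, by a narrow margin, but was not called, and BAK1 overlaps but was called.

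The 2 pro-survival genes had the highest levels per length of the 10, and the differences in them were small. BCL2L1 (ENSG00000171552, chromosome 20, 31664452 to 31723989, minus strand, GRCh38), which encodes BCL-XL and, by alternative splicing, the shorter pro-apoptotic BCL-XS, was at 449, 468, 462 and 469 CPM in the control libraries and 446, 443, 435 and 446 CPM in the ELAPOR1 libraries. Every ELAPOR1 library was below every control library, by a narrow margin. The difference was not called (edgeR adjusted p = 0.0711 for a log2 fold change of -0.062, SE 0.0278, 95% interval -0.12 to -0.00492). That interval spans changes of -7.86% to -0.341%. It passed the threshold with upper-quartile scaling (adjusted p = 0.0439), with DESeq2's Wald test (adjusted p = 0.0456) and without control replicate 1 (edgeR adjusted p = 0.00518).

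MCL1 (ENSG00000143384, chromosome 1, 150574551 to 150579738, minus strand), the short-lived pro-survival protein that binds BAK1 and the BH3-only protein NOXA, was at 412, 409.6, 405 and 389 CPM in the control libraries and 439, 434, 429.6 and 436 CPM in the ELAPOR1 libraries. All 4 ELAPOR1 libraries were above all 4 control libraries. MCL1 rose from 404 ± 10.2 CPM to 434 ± 3.81 CPM (mean ± SD over 4 libraries each), a change of 7.54% (edgeR adjusted p = 0.00275 for a log2 fold change of 0.10, SE 0.0284). ABALON, antisense to BCL2L1, held 0 to 4 counts per library. Gene counts do not separate the long and short splice forms of either BCL2L1 or MCL1. The MCL1 rise was 0.069 on the log2 scale once the dependence on GC content and transcript length had been removed from each library (edgeR adjusted p = 0.0137).

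Both effectors were lower. BAX (ENSG00000087088, chromosome 19, 48954815 to 48961798, plus strand), a cytosolic effector that moves to mitochondria on activation, was at 109, 116, 115 and 122 CPM in the control libraries and 89.5, 93.1, 85.9 and 88.3 CPM in the ELAPOR1 libraries. The groups did not overlap. BAX fell from 115 ± 5.25 CPM to 89.2 ± 3.03 CPM (mean ± SD over 4 libraries each), a change of -22.5% (edgeR adjusted p = 2.7e-09 for a log2 fold change of -0.37, SE 0.0404). After removal of the GC and length trends its log2 fold change was -0.27 (edgeR adjusted p = 2.7e-09). BAK1 (ENSG00000030110, chromosome 6, 33572547 to 33580293, minus strand), the effector that sits in the mitochondrial outer membrane, was at 45.5, 44.4, 41.8 and 49.1 CPM in the control libraries and 42.4, 40.9, 41.2 and 39.7 CPM in the ELAPOR1 libraries. The highest ELAPOR1 library lay above the lowest control library, so the groups overlapped. BAK1 fell by a smaller amount (edgeR adjusted p = 0.0393 for a log2 fold change of -0.14, SE 0.0547), and control replicate 4 was the highest library: without it the log2 fold change was -0.10 (edgeR adjusted p = 0.169). The BAK1 call was also lost without control replicate 2 or ELAPOR1 replicate 2, 3 or 4 (adjusted p from 0.0528 to 0.115), with total count scaling (adjusted p = 0.0825) and after removal of the GC and length trends (-0.083, adjusted p = 0.196). The pseudogenes BAK1P1 and BAK1P2 held at most 4.03 counts in any library.

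Among the BH3-only genes, BBC3 showed the largest change. BBC3 (ENSG00000105327, chromosome 19, 47220822 to 47232766, minus strand) encodes PUMA, which binds all pro-survival family proteins. It was at 10.7, 12.7, 12.8 and 11.2 CPM in the control libraries and 7.61, 6.85, 6.69 and 6.75 CPM in the ELAPOR1 libraries. The highest ELAPOR1 library was well below the lowest control library. BBC3 fell from 11.9 ± 1.08 CPM to 6.98 ± 0.428 CPM (mean ± SD over 4 libraries each), a change of -41.1% (edgeR adjusted p = 2.6e-07 for a log2 fold change of -0.76, SE 0.105), which placed it at percentile 2.58 of the log2 fold changes of all tested genes. Its longest annotated transcript is rich in G and C (69.7%, against 37.2% for PMAIP1). After removal of the GC and length trends the log2 fold change was -0.64 (edgeR adjusted p = 9.5e-07).

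PMAIP1 (ENSG00000141682, chromosome 18, 59899948 to 59904306, plus strand) encodes NOXA, which binds MCL1 and promotes its degradation. It was at 96.5, 83.8, 95.2 and 85.5 CPM in the control libraries and 74.6, 66.3, 77.7 and 76.9 CPM in the ELAPOR1 libraries. PMAIP1 fell from 90.3 ± 6.52 CPM to 73.9 ± 5.26 CPM (mean ± SD over 4 libraries each), with no overlap of the groups (edgeR adjusted p = 4.9e-05 for a log2 fold change of -0.29, SE 0.0518). The spread within groups, 7.22% of the mean in control and 7.11% in ELAPOR1 libraries, was wider than the 2.55% and 2.94% that counting alone gives.

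BID (ENSG00000015475, chromosome 22, 17734138 to 17774770, minus strand), which caspase-8 cleaves to carry the death receptor signal to mitochondria, went the other way. It was at 23.6, 23.7, 24.2 and 25.1 CPM in the control libraries and 31.1, 29.6, 31.2 and 27.2 CPM in the ELAPOR1 libraries. BID rose from 24.1 ± 0.671 CPM to 29.8 ± 1.86 CPM (mean ± SD over 4 libraries each), again with no overlap, a change of 23.2% (edgeR adjusted p = 2.7e-04 for a log2 fold change of 0.30, SE 0.0650). Its rise stayed between 0.28 and 0.34 on the log2 scale over the 20 alternative analyses.

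The other 3 BH3-only genes were not called. BCL2L11 (ENSG00000153094, chromosome 2, 111119378 to 111168447, plus strand), which encodes BIM, was at 37.5, 39.7, 44.5 and 35.5 CPM in the control libraries and 41.1, 36.7, 43.3 and 36.5 CPM in the ELAPOR1 libraries. The ranges of the groups overlapped almost fully (edgeR adjusted p = 0.986 for a log2 fold change of 0.00173, SE 0.0665), and the 95% interval of -0.13 to 0.14 allows changes of -8.89% to 10.0%. The long noncoding gene MIR4435-2HG lies on the opposite strand and shares 727 exonic bases with BCL2L11. It was lower in ELAPOR1 libraries (log2 fold change -0.27, edgeR adjusted p = 1.0e-04), and as the use of strand was not stated, reads from the shared bases cannot be told apart.

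BIK (ENSG00000100290, chromosome 22, 43110748 to 43129712, plus strand), a BH3-only protein of the endoplasmic reticulum, was at 5.49, 5.61, 5.57 and 8.17 CPM in the control libraries and 5.40, 5.39, 6.84 and 6.40 CPM in the ELAPOR1 libraries. Control replicate 4 stood above the other 3 control libraries. The log2 fold change was -0.046 (95% interval -0.34 to 0.24, edgeR adjusted p = 0.822) and 0.11 without that library (adjusted p = 0.577). BMF (ENSG00000104081, chromosome 15, 40087890 to 40108892, minus strand), known for its binding to the cytoskeleton, was at 5.04, 4.19, 7.01 and 6.40 CPM in the control libraries and 5.65, 5.26, 7.92 and 5.94 CPM in the ELAPOR1 libraries. Its log2 fold change was 0.13 (95% interval -0.19 to 0.44, edgeR adjusted p = 0.545). Both genes had between 71 and 134 counts per library. The spread between libraries was 22.6% of the mean in control and 19.2% in ELAPOR1 libraries for BMF, where counting alone gives 10.2% in each. For BIK it was 21.1% and 12.1%, where counting alone gives 9.75% and 10.3%. The intervals of both genes include, in 1 direction, a change as large as that of PMAIP1.

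**Figure D2:**
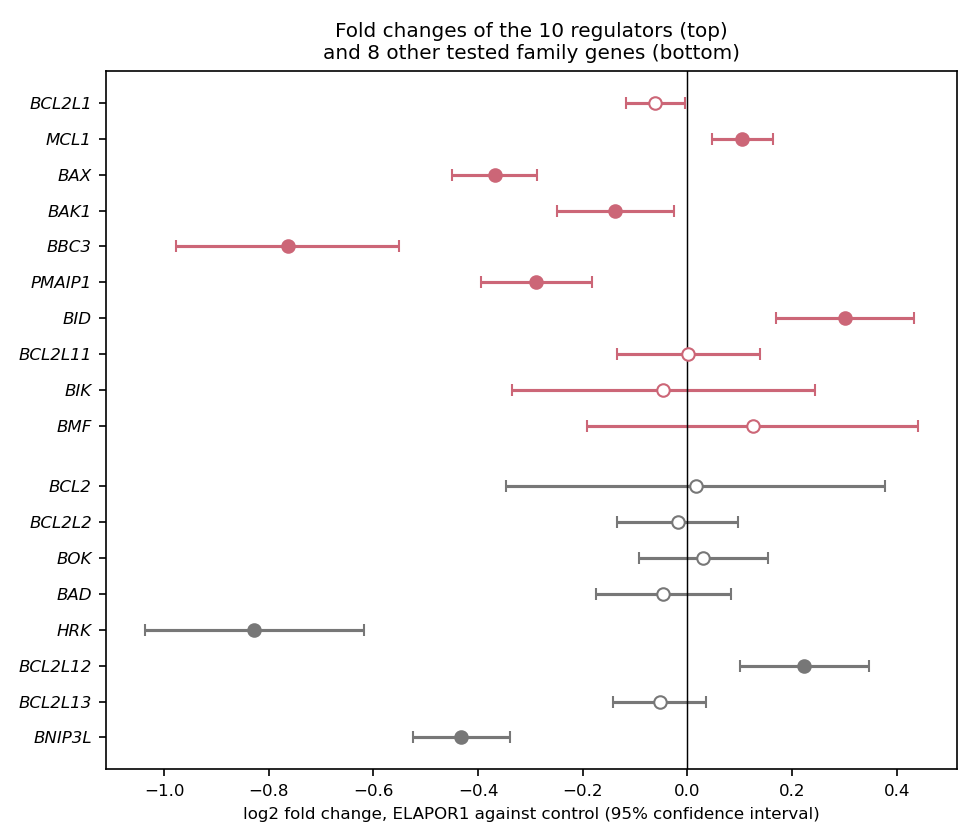
Log2 fold changes of ELAPOR1 against control with 95% confidence intervals from edgeR, for the 10 genes (red, top) and 8 other tested family genes (grey, bottom). Filled points were called at an adjusted p-value under 0.05; BBC3 (-0.76) and HRK (-0.83) lie farthest to the left.

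Levels of different genes were compared per length, as TPM from the length of all annotated exons of each gene. BCL2L1 had the highest level, 511 ± 3.91 TPM in the 4 control libraries and 499.6 ± 5.62 TPM in the 4 ELAPOR1 libraries (mean ± SD here and below). MCL1 followed at 339 ± 11.6 TPM in the 4 control libraries and 372 ± 2.76 TPM in the 4 ELAPOR1 libraries. Together these pro-survival transcripts made up 38.7% and 25.7% of the summed TPM of the 10 genes in control, and 39.1% and 29.1% in ELAPOR1 libraries. BAX held the third place, at 163 ± 5.69 TPM in the 4 control libraries and 129 ± 4.58 TPM in the 4 ELAPOR1 libraries. PMAIP1 was next, at 148 ± 12.3 TPM in the 4 control libraries and 124 ± 8.58 TPM in the 4 ELAPOR1 libraries, and its values overlapped those of BAX in both groups. BAK1 held the fifth place, at 74.9 ± 4.89 TPM in the 4 control libraries and 69.4 ± 1.75 TPM in the 4 ELAPOR1 libraries.

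A gap separated these 5 genes from the other BH3-only genes. In control libraries BIK (23.9 ± 4.86 TPM), BCL2L11 (21.6 ± 2.14 TPM) and BID (19.9 ± 0.451 TPM) lay close together: the values of BIK overlapped those of BCL2L11, and those of BCL2L11 overlapped those of BID. In ELAPOR1 libraries BID (22.8 to 26.2 TPM), BIK (21.1 to 26.8 TPM) and BCL2L11 (20.5 to 24.3 TPM) overlapped each other, BID with the highest mean. BBC3 came next to last, at 13.7 ± 1.16 TPM in the 4 control libraries and 8.20 ± 0.484 TPM in the 4 ELAPOR1 libraries, and BMF was lowest, at 3.81 ± 0.856 TPM in the 4 control libraries and 4.25 ± 0.814 TPM in the 4 ELAPOR1 libraries. When the longest annotated transcript was used as the length, the first 5 places and the last were held by the same genes in control, BID moved above BIK and BCL2L11, and the means of BIK (17.3 TPM) and BBC3 (17.2 TPM) lay close together.

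**Figure D3:**
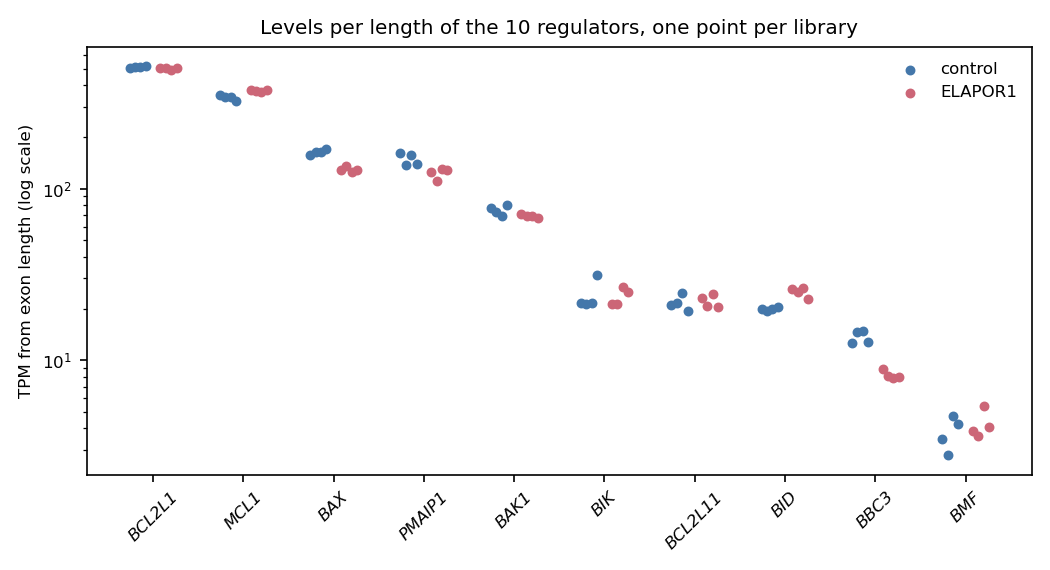
TPM computed from annotated exon length (log axis) for the 10 genes in 4 control (blue) and 4 ELAPOR1 (red) libraries, ordered by the control mean. BCL2L1 and MCL1 lie highest, BBC3 and BMF lowest, and BIK, BCL2L11 and BID lie close together in control.

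Ratios of TPM within a library do not depend on the scaling between libraries, and are given as a description. The GC and length trends were not removed from them. With these trends removed, the log2 fold changes of BAX, BCL2L1 and MCL1 were -0.27, -0.033 and 0.069, against -0.37, -0.062 and 0.10 in the main fit. The ratio of BAX to BCL2L1 was 0.319 ± 0.00893 in the 4 control libraries and 0.258 ± 0.00758 in the 4 ELAPOR1 libraries (mean ± SD), with no overlap. That of BAK1 to BCL2L1 was 0.146 ± 0.00952 in the 4 control libraries and 0.139 ± 0.00414 in the 4 ELAPOR1 libraries, with overlap. The ratio of MCL1 to BCL2L1 was 0.663 ± 0.0275 in the 4 control libraries and 0.744 ± 0.00357 in the 4 ELAPOR1 libraries, higher in every ELAPOR1 library. The ratio of PMAIP1 to MCL1, the pair whose proteins bind each other, was 0.437 ± 0.0282 in the 4 control libraries and 0.333 ± 0.0242 in the 4 ELAPOR1 libraries. The ratio of BID to BBC3 was 1.46 ± 0.143 in the 4 control libraries and 3.05 ± 0.205 in the 4 ELAPOR1 libraries. A ratio shows that 2 genes changed unequally, not which of them changed.

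Among 13 other family genes, 8 were tested, of which HRK and BNIP3L were lower, BCL2L12 was higher and 5 were not called. Of all tested genes, 44.7% were called, 22.6% higher and 22.1% lower. HRK, a further BH3-only gene, was at 11.5, 14.5, 12.3 and 13.2 CPM in the control libraries and 6.87, 7.12, 7.70 and 7.33 CPM in the ELAPOR1 libraries. Its groups did not overlap, and its fall (edgeR adjusted p = 3.7e-08 for a log2 fold change of -0.83, SE 0.103) stands beside -0.76 for BBC3. BNIP3L, a BH3-like receptor of mitophagy, fell from 66.9 ± 1.86 CPM to 49.6 ± 1.09 CPM (mean ± SD over 4 libraries each, edgeR adjusted p = 1.3e-09 for a log2 fold change of -0.43, SE 0.0456). BCL2L12 rose from 35.2 ± 2.29 CPM to 41.0 ± 2.97 CPM (mean ± SD over 4 libraries each, edgeR adjusted p = 0.00285 for a log2 fold change of 0.22, SE 0.0606), with overlapping groups. The effector-like BOK (0.030, edgeR adjusted p = 0.720), the BH3-only gene BAD (-0.046, adjusted p = 0.593) and BCL2L13 (-0.053, adjusted p = 0.339) were not called. With the GC and length trends removed, BCL2L13 was called lower (-0.11, edgeR adjusted p = 0.0196).

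The pro-survival genes BCL2 and BCL2L2 were not called either. BCL2 was low, at 3.71, 3.84, 3.54 and 2.99 CPM in the control libraries and 3.68, 3.53, 2.74 and 4.21 CPM in the ELAPOR1 libraries (log2 fold change 0.015, 95% interval -0.35 to 0.38, edgeR adjusted p = 0.955). Per length it stood at 0.923 to 1.19 TPM in control libraries, far below BCL2L1. BCL2L2 was at a log2 fold change of -0.019 (adjusted p = 0.823) and shares sequence with the readthrough gene BCL2L2-PABPN1, which was listed with 0 to 44.83 counts, so its value is uncertain. The 5 genes not tested were BCL2A1, BCL2L10, BCL2L14, BCL2L15 and BNIP3, none with more than 10 counts in a library. BNIP3 was at 0 counts in all 8 libraries, which allows up to 3 counts in each and covers counting error only.

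The wider pathway was described from lists of genes that act beside, below or above the family, with genes counted in the fit over all genes. Each count below is to be read against the 44.7% of all tested genes that were called, 22.6% higher and 22.1% lower. Of mitochondrial partners and proteins of MCL1 turnover, 1 of 9 tested genes was called (median 0.021). This was VDAC2, a channel that holds BAK1 in the outer membrane, which fell from 302 ± 8.17 CPM to 267 ± 6.02 CPM (mean ± SD over 4 libraries each, edgeR adjusted p = 9.9e-06 for a log2 fold change of -0.18, SE 0.0304). The MCL1 ligase HUWE1 (0.060, edgeR adjusted p = 0.131) and the MCL1 deubiquitinase USP9X (0.065, adjusted p = 0.139) were not called. Both were called higher with total count scaling (adjusted p = 0.0397 and 0.0476), and HUWE1 also without control replicate 1 (adjusted p = 0.0123).

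Downstream of the pore, 2 of 7 apoptosome and released factors were called. CYCS, cytochrome c itself, rose from 327 ± 8.29 CPM to 363 ± 5.02 CPM (mean ± SD over 4 libraries each, edgeR adjusted p = 5.3e-05 for a log2 fold change of 0.15, SE 0.0291), and the initiator caspase gene CASP9 was lower (edgeR adjusted p = 0.00557 for a log2 fold change of -0.40, SE 0.117), with overlapping groups. Of 6 other caspase and nuclease genes examined, CASP2 and CASP8 were higher and CASP10 lower. CASP8, which encodes the protease that cleaves BID, rose from 45.4 ± 1.25 CPM to 57.6 ± 2.61 CPM (mean ± SD over 4 libraries each, edgeR adjusted p = 6.5e-07 for a log2 fold change of 0.34, SE 0.0493). CASP2 rose from 64.6 ± 1.30 CPM to 83.9 ± 2.56 CPM (edgeR adjusted p = 3.9e-09 for a log2 fold change of 0.38, SE 0.0420). CASP10 fell by less (edgeR adjusted p = 0.0260 for a log2 fold change of -0.19, SE 0.0702), and its call was lost without control replicate 1 or 4 or ELAPOR1 replicate 1 or 3 (adjusted p from 0.0504 to 0.0829) and with DESeq2's Wald test (adjusted p = 0.0505). CASP6 (-0.00297, edgeR adjusted p = 0.983) was not called.

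Of the inhibitor of apoptosis genes, 4 of 6 tested were called, 3 higher and 1 lower (44.7% of all tested genes were called), with a median log2 fold change of 0.089. BIRC6 rose by 0.21 (edgeR adjusted p = 1.4e-05), BIRC2 by 0.16 (adjusted p = 0.00192) and BIRC5, also a mitotic gene, by 0.081 (adjusted p = 0.0463, with overlapping groups). The BIRC5 call was lost without control replicate 1 or 2 or ELAPOR1 replicate 1, 2 or 3 (adjusted p from 0.0759 to 0.156; log2 fold change 0.054 without control replicate 1). It was lost under 12 of 20 alternatives in all, among them DESeq2 size factors, upper-quartile scaling, DESeq2's Wald test, no filter and the replicate block (adjusted p from 0.0507 to 0.0894). NAIP was lower (-0.59, edgeR adjusted p = 0.00237), also with overlap, at means of 7.08 CPM in control and 4.72 CPM in ELAPOR1 libraries. The expected counts of NAIP were not whole in any library, so its value is uncertain. XIAP, a direct inhibitor of caspases, was at 0.10 (adjusted p = 0.0865), and was called higher with total count scaling (adjusted p = 0.0359) and without control replicate 2 (adjusted p = 0.0160).

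In the death receptor arm, 6 of 10 tested genes were called, 3 in each direction, against 44.7% of all tested genes. The TRAIL receptor TNFRSF10A (0.25, edgeR adjusted p = 0.00285), the kinase RIPK1 (0.26, adjusted p = 3.2e-05) and the caspase-8 inhibitor CFLAR (0.17, adjusted p = 1.2e-04) were higher. FAS (-0.21, adjusted p = 0.0448, with overlap), the decoy receptor TNFRSF10D (-0.17, adjusted p = 0.00931) and TNFRSF1A (-0.18, adjusted p = 1.1e-04) were lower. The FAS call was lost without control replicate 2 or 4 or ELAPOR1 replicate 1, 3 or 4 (adjusted p from 0.0888 to 0.166), and under 11 of 20 alternatives in all, among them total count scaling (adjusted p = 0.0714), DESeq2's Wald test (adjusted p = 0.0811), no filter (adjusted p = 0.0516) and removal of the GC and length trends (adjusted p = 0.0529).

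PMAIP1, BBC3 and BAX are known to respond to DNA damage, so other genes of the DNA damage response were listed beside them. Of 19 genes examined, 11 were called, 4 higher and 7 lower (22.6% and 22.1% of all tested genes), with a median of -0.13. CDKN1A, the cell cycle inhibitor p21, rose from 16.2 ± 0.755 CPM to 28.2 ± 2.21 CPM (mean ± SD over 4 libraries each, edgeR adjusted p = 5.9e-11 for a log2 fold change of 0.80, SE 0.0733), opposite in direction to BBC3. AEN also rose (edgeR adjusted p = 1.2e-09 for a log2 fold change of 0.41, SE 0.0432). CCNG1 fell from 163 ± 6.29 CPM to 115 ± 2.34 CPM (edgeR adjusted p = 1.7e-13 for a log2 fold change of -0.50, SE 0.0358). TIGAR was among the others called higher, with overlapping groups, and GDF15, PHLDA3, XPC, MDM2 and MDM4 were among the others called lower. The level of GDF15 was low, with means of 2.84 CPM in control and 1.51 CPM in ELAPOR1 libraries. PHLDA3 was also low, with means of 4.55 CPM in control and 3.17 CPM in ELAPOR1 libraries. The calls of PHLDA3 without ELAPOR1 replicate 2 (adjusted p = 0.0550) and of GDF15 without control replicate 4 (adjusted p = 0.0506) were lost.

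Of 11 tested genes for transcription factors and cofactors linked to BH3-only genes, 7 were called, against 44.7% of all tested genes. JUN, an AP-1 subunit, rose from 21.4 ± 2.51 CPM to 39.3 ± 2.70 CPM (mean ± SD over 4 libraries each, edgeR adjusted p = 1.1e-11 for a log2 fold change of 0.88, SE 0.0724). FOXO4 fell from 10.7 ± 0.897 CPM to 6.53 ± 0.642 CPM (edgeR adjusted p = 2.8e-06 for a log2 fold change of -0.71, SE 0.111). TRIB3 fell from 102 ± 4.95 CPM to 65.7 ± 1.65 CPM (edgeR adjusted p = 3.6e-14 for a log2 fold change of -0.63, SE 0.0427). The stress factors ATF4 (-0.53, edgeR adjusted p = 1.1e-13) and DDIT3 (-0.54, adjusted p = 1.3e-07), the latter encoding CHOP, were the other 2 called lower. ATF3 (0.32, adjusted p = 3.3e-06) and TP73 (1.20, adjusted p = 4.8e-05) were the other 2 called higher. The level of TP73 was low, with means of 1.56 CPM in control and 3.60 CPM in ELAPOR1 libraries. FOXO3, the factor best known for BCL2L11, was not called (0.016, adjusted p = 0.836).

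**Figure D4:**
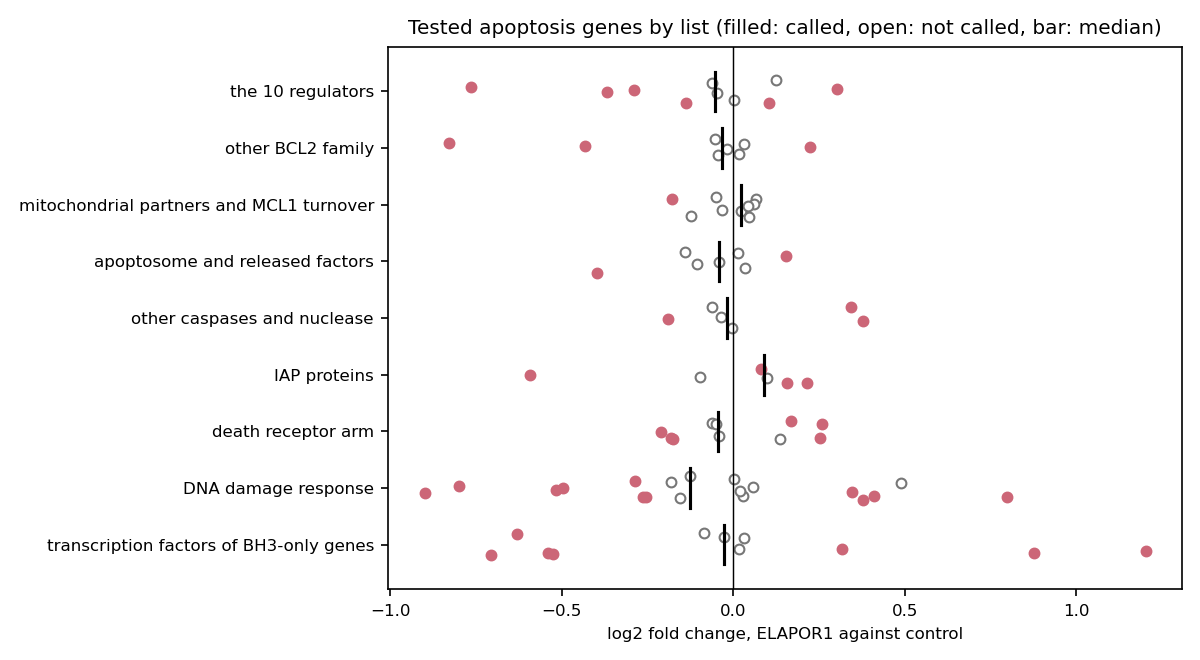
Log2 fold changes of ELAPOR1 against control for the tested genes of each list, 1 point per gene, filled where called and open where not, with the list's median as a bar. The medians of all lists lie between -0.13 and 0.089, while single genes such as BBC3, HRK, CDKN1A, JUN and TP73 lie far from 0. TP73 had a mean of only 1.56 CPM in control libraries.

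Of the 34 tested genes within 100 kb of a member, 10 were called higher and 7 lower, against 22.6% and 22.1% of all tested genes. MCL1 lies 13614 bases from ADAMTSL4, which fell from 58.9 ± 4.45 to 19.8 ± 0.496 CPM (mean ± SD over 4 libraries each, log2 fold change -1.57, edgeR adjusted p = 1.8e-20) while MCL1 rose. Of the other 5 tested neighbours of MCL1, 2 were called higher and none lower. Around BAX, 2 of 8 neighbours were higher and 3 lower. NTF4, near BAX (log2 fold change -1.24, edgeR adjusted p = 0.00969), and SRP14-AS1, near BMF (log2 fold change -1.35, edgeR adjusted p = 0.00989), were called lower at about 1 CPM in control; SRP14-AS1 was at -2.05 without ELAPOR1 replicate 3. The nearest tested neighbour of BBC3, SAE1, was higher (log2 fold change 0.32, edgeR adjusted p = 3.9e-10), opposite to BBC3. That of BID, the family gene BCL2L13, lies 3283 bases away and was called only with the GC and length trends removed, among the alternatives tried.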

How the data were processed

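The authors deposited 1 table of expected counts per gene, unscaled, with a column for each of the 8 libraries. Per the submitters' processing notes, cutadapt, STAR, RSEM and DESeq2 were used with the build hg38; versions, annotation release and use of strand were not given in the sources used here. Of the nonzero values, 15.0% were not whole. Coordinates, exon lengths and overlaps are from GENCODE release 29 (GRCh38), in which 58597 of 58870 identifiers were found; start regions are from RefSeq. Of 2 rows named DIABLO, the one that the table of gene names gives that symbol was used.

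Values were rounded to integers before testing by edgeR 4.0.16 under R 4.3.3 (filterByExpr, TMM, robust quasi-likelihood test, two-sided, no covariate), with Benjamini-Hochberg adjustment over 13860 genes. SE is the log2 fold change divided by the square root of F. TPM was computed from exon length over all rows. The test was checked on simulated counts in which, unlike here, few genes changed. It called 54% of 50 genes changed by 0.25 on the log2 scale and 79.2% of 48 changed by 0.5. At 1 and 2 it called 92% of 50 and 100% of 49, with 4 false calls.

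The members and lists were chosen with earlier results of these data known. Named were all members and other family genes, and the 3 called genes of each other list with the largest change, no overlap of the groups and at least 5 CPM on average; neighbours within 100 kb were named if called with a log2 fold change of at least 0.58 in size. Other genes named from the lists or as neighbours were chosen after their values were seen. Alternatives were other scalings, DESeq2 1.42.0, limma-voom (limma 3.58.1), 2 filters, a replicate block, leaving out each library, the ELAPOR1 row left out, an adjusted p-value under 0.01, a test against 1.5-fold, and removal of GC and length trends. Some genes of the lists are not reported here. Protein sequences of BH3 domains were not analysed here. Plots used matplotlib 3.10.9.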

Additional observations from a re-analysis of the deposited data

Results flagged for a closer look

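In 7 of 126 groups of 4 libraries examined (total counts, genes with a count, and the CPM of the named genes), 1 value stood apart from the remaining 3, past Dixon's critical value. Chance alone gives about 1 in 20 such groups, here 6.3. BIK was at 8.17 CPM in control replicate 4 and at 5.49 to 5.61 CPM in the other control libraries; its log2 fold change was -0.046 with that library and 0.11 without it, and was called in neither case. CASP8 was at 43.5 CPM in control replicate 4 and at 46.0 to 46.1 CPM in the others. AEN was at 56.6 CPM in control replicate 2 and at 56.2 to 56.3 CPM in the others. JUN was at 17.6 CPM in control replicate 2 and at 22.3 to 23.0 CPM in the others. USP9X was at 208 CPM in control replicate 4 and at 232 to 237 CPM in the others. MDM2 was at 95.8 CPM in ELAPOR1 replicate 4 and at 91.4 to 91.9 CPM in the others. SRP14-AS1 was at 0.936 CPM in ELAPOR1 replicate 3 and at 0.231 to 0.266 CPM in the other ELAPOR1 libraries; without that library its log2 fold change was -2.05 instead of -1.35.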

How the results depend on the processing

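BAX, BBC3, PMAIP1, BID and MCL1 kept their direction and their call under 19 of the 20 alternatives, the exception being the test against a 1.5-fold change. Between 5 and 7 members were called under the others. The share of all tested genes called under them ran from 25.4% (no filter beyond 1 count) to 47.4% (at least 10 counts in every library). Leaving out 1 library gave log2 fold changes of -0.40 to -0.34 for BAX, -0.82 to -0.73 for BBC3, -0.32 to -0.24 for PMAIP1, 0.28 to 0.34 for BID and 0.088 to 0.11 for MCL1. BAK1 lost its call under 12 of 20 alternatives (edgeR or DESeq2 adjusted p up to 0.196 in those other than the test against 1.5-fold, where it was 1), including those without control replicate 2 or 4 or ELAPOR1 replicate 2, 3 or 4. BCL2L1 gained one under 3. The replicate numbers did not pair the libraries (correlations of same-numbered deviations from -0.0213 to 0.0326), and with the replicate number as a block 5 members and 5926 genes were called, against 6 and 6193; BAK1 was the member lost (edgeR adjusted p = 0.0533), and BIRC5 lost its call too (adjusted p = 0.0775). The test against 1.5-fold called 215 genes (124 higher, 91 lower), 1.55% of all tested genes, and 0 members (0 higher, 0 lower). It called 1 gene each of the DNA damage and transcription factor lists and 0 of every other list. BBC3 was at a glmTreat adjusted p of 0.472. Of mitochondrial partners and MCL1 turnover (9 genes tested in the main fit), 3 were called with total counts, against 44.9% of all tested genes. After removal of GC and length trends 2 were called, against 46.7% of all. With 1 library left out 1 to 2 were called, against 39.7% to 45.2% of all. Uncalled genes changed sign. BCL2L11 was at -0.00652 with upper-quartile scaling, -2.6e-05 without a filter and -0.055 with the trends removed. Under that removal BIK was at 0.062, BCL2 at -0.050, BAD at 0.10, CASP6 at 0.043 and FOXO3 at -0.055, and with total counts BCL2L2 was at 0.00273 and CASP6 at 0.018. With 1 library left out, BCL2L11 was at -0.044 to 0.066, BIK at -0.11 to 0.11, BMF at -0.00696 to 0.24, BCL2 at -0.081 to 0.12, BCL2L2 at -0.056 to 0.018, CASP6 at -0.089 to 0.042 and FOXO3 at -0.029 to 0.060. The cause of these sign changes was not tested. Total counts moved the median of all genes to 0.022.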
